A study of Mus musculus with 10 samples.

Results

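The genes for the beta subunits of the sodium pump (Atp1b1, Atp1b2, Atp1b3) and for FXYD regulators of the pump (Fxyd1, Fxyd2, Fxyd6) were followed in the cochlea, the hearing organ of the inner ear. Every probe set whose platform symbol, current or older, was one of these 6 names was taken, which gave 14 of the 45037 probe sets measured on all arrays. Of these 14, 12 passed the brightness filter, which kept the brighter 22518 probe sets by their average log2 signal, and each of the 6 genes kept at least 1 of them.

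The RNA came from male mice aged 9 months and was hybridised to 10 Affymetrix arrays. There were 5 arrays from wild-type mice (Polg+/+, labelled WT) and 5 from homozygous mutants (PolgD257A/D257A, labelled D257A). Polg encodes the catalytic subunit of the polymerase that copies mitochondrial DNA, and the D257A form lacks proofreading, so that mutations build up in mitochondrial DNA in all tissues. The labels give no strain background, no treatment and no statement on whether cochleae were pooled or came from separate animals, and the design text states that no replicates were done. Here n counts arrays, and p-values measure only the spread between them.

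The trimmed mean signal was 1494 to 1496 on every array, and the correlation of log2 signals over the tested probe sets was 0.76 to 0.966 between pairs of arrays. WT replicate 3 and D257A replicate 2 correlated least with their own groups (mean r of 0.876 and 0.839, against at least 0.878 for the other 8 arrays). Cochlear markers were bright on all arrays: the summed signal of 7 spiral ligament markers, among them Coch and Otos, was 176100 to 226300 in WT and 156000 to 207100 in D257A. The outer hair cell gene Slc26a5 and the receptor gene Chrna9 lay below the brightness filter. Markers of neighbouring tissues were present as well and differed between the groups. The summed signal of 14 skeletal muscle markers was 189700 to 569400 in WT and 10910 to 292300 in D257A, that of 10 glandular and mucosal markers 191600 to 506200 and 71530 to 111400, and that of 7 choroid plexus markers 12590 to 18780 and 16150 to 182900. Their part in the results below was not tested, and in whole-tissue RNA fewer cells of a type and less RNA per cell cannot be told apart.

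The sodium pump, or Na,K-ATPase, moves sodium out of cells and potassium in at the cost of ATP. Its alpha subunit binds the ions and ATP, its beta subunit is needed for folding, delivery to the membrane and potassium affinity, and small FXYD proteins attach to the complex and tune its affinity or speed in a tissue-specific way. In the cochlea the pump is densest in the stria vascularis and in fibrocytes of the lateral wall, where it sustains the high potassium concentration and positive potential of the endolymph on which hair cells depend.

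None of the 12 tested member probe sets passed the test of D257A against WT. In the limma fit over 22518 probe sets, 2.28% passed an adjusted p of 0.05 in either direction, 1.24% lower and 1.03% higher in D257A. At an unadjusted p of 0.05 in the same limma fit, 1 of the 12 passed, against 16.9% of all tested probe sets. None of the 12 separated the groups without overlap, against 5.16% of all tested probe sets. The log2 fold change was negative for 7 and positive for 5 of the 12, and their median was -0.01, while over all tested probe sets 50.1% were negative and the median was -0.00054. By the brightest probe set of each gene, 5 of 6 genes were negative and the median was -0.14.

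**Figure D1:**
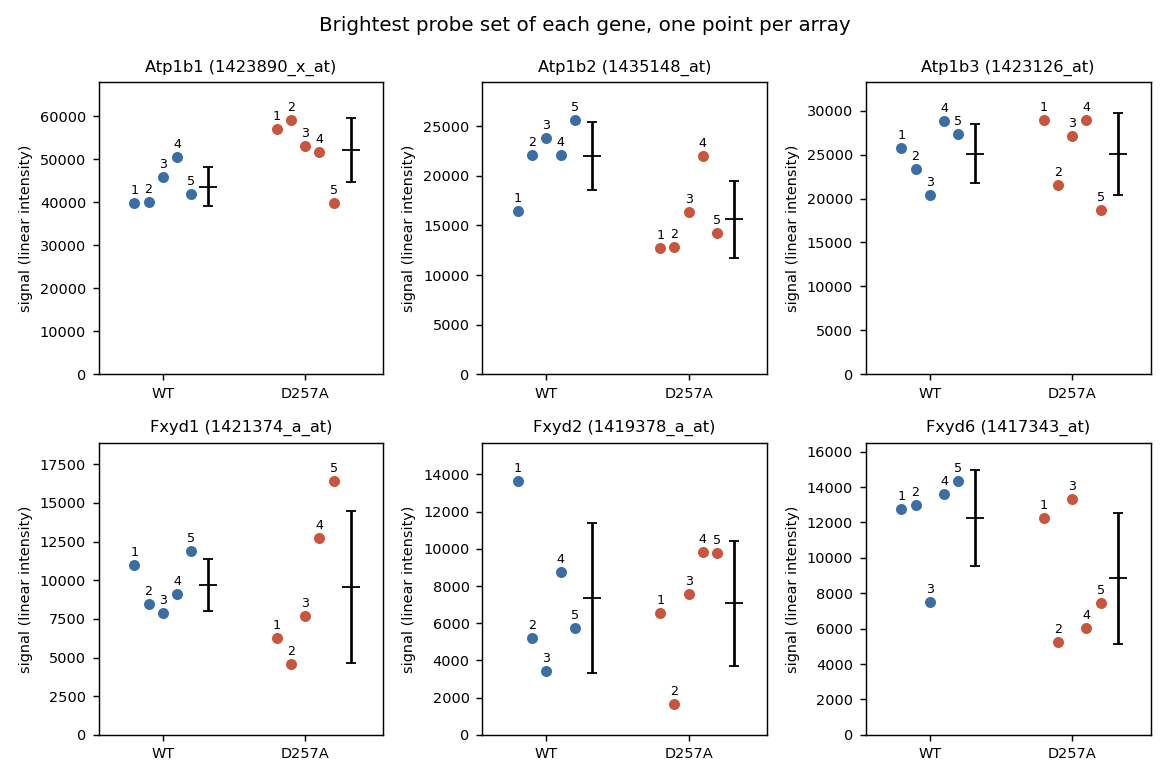
Signal (linear intensity) of the brightest probe set of each of the 6 genes, one point per array labelled with its replicate number, with the mean and SD of the 5 arrays of each group beside the points. The groups overlap in all 6 panels; Atp1b2 comes closest to separating, with D257A replicate 4 (22038) inside the WT range of 16415 to 25607.

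Atp1b2, which encodes the beta2 subunit, first described as an adhesion molecule on glia and also found in the marginal cells of the stria, had the smallest p among the members. The WT signals of its brightest probe set (1435148_at) were 16415, 22118, 23844, 22114 and 25607 for replicates 1 to 5. The D257A signals were 12727, 12813, 16370, 22038 and 14202. Only D257A replicate 4 came close to the upper WT arrays, just below all of them. WT replicate 1 was the one wild-type array near the other D257A values. The mean was 22020 ± 3451 in WT and 15630 ± 3874 in D257A (SD, n = 5 each), and D257A was the higher in 1 of the 25 comparisons of 1 WT with 1 D257A array. The log2 fold change was -0.51 (SE 0.18, 95% interval -0.91 to -0.11), with an unadjusted p of 0.0158 and an adjusted p of 0.176 in limma. The difference therefore did not pass the test after adjustment over all probe sets. A two-sided exact permutation test of this probe set alone gave p = 0.0159, where 0.00794 is the smallest value that 5 against 5 arrays allow.

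The other probe set of Atp1b2 (1422009_at) had a wider spread. It measured 4274 ± 2275 in WT and 3574 ± 1767 in D257A (SD, n = 5 each), with a log2 fold change of -0.18 and an interval from -1.06 to 0.70. Its signals ran from 1734 (WT replicate 3) to 6898 (WT replicate 5), so arrays of the same genotype differed far more than the group means. With the mean over both probe sets, the change of Atp1b2 was -0.34 (limma adjusted p = 0.598).

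Of the cell type marker lists, those whose summed signal had an r above 0.5 in size with a member's brightest probe set are given for that member, over the 10 arrays of whole cochlear RNA with each group centred on its own mean. Every list was compared with every member, and these r were picked by size without a test. Over 10 arrays an r of this size can arise by chance. The skeletal muscle list for Fxyd1 (r = 0.137) and the kidney-type list for Fxyd2 (r = -0.269) are named below although their r was smaller. Atp1b2 had r = 0.504 with 8 astrocyte and satellite glia markers and r = 0.562 with 8 cerebellar neuron markers. It ran opposite to 7 choroid plexus markers (r = -0.787), 8 neutrophil markers (r = -0.757) and 14 skeletal muscle markers (r = -0.582). WT replicate 1, the lowest wild-type array for Atp1b2, also had the lowest glial sum (83150, against 106300 to 156800 on the other WT arrays) and the lowest cerebellar sum (13120, against 49580 to 101600). D257A replicate 4, the highest mutant array, had a choroid plexus sum of 16150, against 89860 to 182900 on the other D257A arrays, and the lowest neutrophil sum of its group (103100, against 162200 to 305200). The neutrophil sum was 74820 to 121700 in WT. The glial sums of the D257A arrays, 109300 to 134200, lay within the WT range. Their cerebellar sums, 25410 to 32730, lay below all WT arrays but replicate 1. None of the 8 glial markers passed the test. Of the 8 cerebellar markers 1 passed, Pcp2, which was lower (log2 fold change -4.02, limma adjusted p = 0.0166). Ttr passed higher of 4 tested choroid plexus markers, and Mpo and Ctsg passed higher of the 8 neutrophil markers. Of the 14 skeletal muscle markers 7 passed, all lower in D257A. The part of these markers' cells in the Atp1b2 difference was not tested. The genes most alike in pattern to Atp1b2, of 11864 compared over the 10 arrays with group means removed, were Olig1, a transcription factor of the oligodendrocyte lineage (r = 0.938), and Elavl3, a neuronal RNA-binding protein (r = 0.927). This likeness is within groups: the Olig1 signal was 553.8 to 1717 in WT and 1423 to 5726 in D257A, the opposite direction to Atp1b2.

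Atp1b1 encodes the beta1 subunit, the most widespread beta form. Its brightest probe set (1423890_x_at) had WT signals of 39837, 40073, 45736, 50471 and 41915 and D257A signals of 56988, 59017, 52979, 51665 and 39881 for replicates 1 to 5. D257A replicates 1 to 4 lay above every WT array, while D257A replicate 5 lay at the bottom of the WT range. The means were 43610 ± 4506 and 52110 ± 7450 (SD, n = 5 each), and the log2 fold change was 0.25 (SE 0.14, 95% interval -0.06 to 0.56, limma adjusted p = 0.398). The suffix x marks a probe set with probes that may also match other transcripts.

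The 4 tested probe sets of Atp1b1 differed in their values. The probe set 1451152_a_at, drawn from the same sequence record as the brightest one, had a log2 fold change of 0.20 (limma adjusted p = 0.524). The sets 1439036_a_at and 1418453_a_at had values of 0.04 and -0.01 (limma adjusted p = 0.928 and 0.995). The dim set 1455949_at measured 525.6 ± 212.2 in WT and 658.5 ± 374.5 in D257A (SD, n = 5 each) and lay below the brightness filter. With group means removed, 1423890_x_at and 1451152_a_at had r = 0.75 over the 10 arrays and 1418453_a_at and 1439036_a_at had r = 0.919, but 1423890_x_at and 1418453_a_at had only r = 0.136. The brightest set and 1418453_a_at thus varied almost independently over these arrays, although both are named for Atp1b1.

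**Figure D2:**
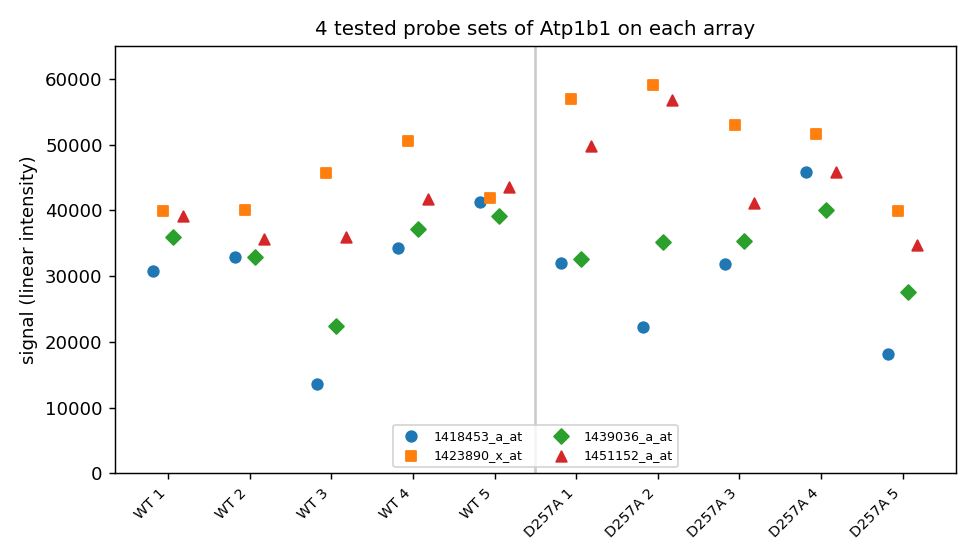
Signal (linear intensity) of the 4 tested Atp1b1 probe sets on each of the 10 arrays, WT left and D257A right of the line, one marker shape per probe set. The set 1418453_a_at is at 41332 on WT replicate 5 and at 13532 on WT replicate 3, while 1423890_x_at is at 41915 and 45736 on these arrays; levels of different probe sets are not comparable.

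Ratios of probe sets of the same gene within an array can be compared over arrays, and 10 such ratios could be formed in the 3 genes with several tested sets. Most of them are pairs of the same Atp1b1 or Fxyd2 sets, so they are not independent observations. WT replicate 3 and D257A replicate 4 gave the lowest or highest value in 5 of the 10 each. For WT replicate 3, several of these ratios share the set 1418453_a_at. D257A replicate 2 and WT replicate 5 did so in 4 each, and WT replicates 1 and 4 and D257A replicates 1 and 5 in none. The ratio of 1418453_a_at to 1423890_x_at of Atp1b1 was lowest in WT replicate 3 (0.296) and D257A replicate 2 (0.377), against means of 0.711 ± 0.257 in WT and 0.576 ± 0.194 in D257A (SD, n = 5 each). In Fxyd2 the ratio of 1456601_x_at to 1419378_a_at was highest on the same arrays, 1.66 in D257A replicate 2 and 1 in WT replicate 3, and between 0.384 and 0.629 on the other 8. In Atp1b2 the ratio of 1422009_at to 1435148_at was lowest in WT replicate 3 (0.0727), but in D257A replicate 2 (0.18) it lay within the range of the other arrays. WT replicate 3 and D257A replicate 2 are the arrays that correlated least with their groups. D257A replicate 4 was close to WT replicate 3 in this (mean r of 0.878 and 0.876). Why these arrays differ from the others was not tested.

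Atp1b3, which encodes the beta3 subunit, had nearly equal means in both groups. Its WT signals were 25719, 23313, 20366, 28801 and 27317 and its D257A signals 28902, 21573, 27133, 28900 and 18664. The groups covered nearly the same range, and the means were 25100 ± 3339 and 25030 ± 4660 (SD, n = 5 each). The log2 fold change was -0.01 (SE 0.17, 95% interval -0.37 to 0.34, limma adjusted p = 0.979), which bounds the fold between 0.773 and 1.27. Its sign was positive without WT replicate 4 (0.04), WT replicate 5 (0.02), D257A replicate 2 (0.03) or D257A replicate 5 (0.09). Its r was 0.536 with neuronal markers, -0.853 with adipocyte, -0.672 with neutrophil, -0.615 with skeletal muscle and -0.538 with choroid plexus markers. Yipf4, a membrane protein of the Golgi, and Dync1li2, a dynein light intermediate chain, were most alike in pattern (r = 0.965 and 0.946 over the 10 arrays, group means removed).

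**Figure D3:**
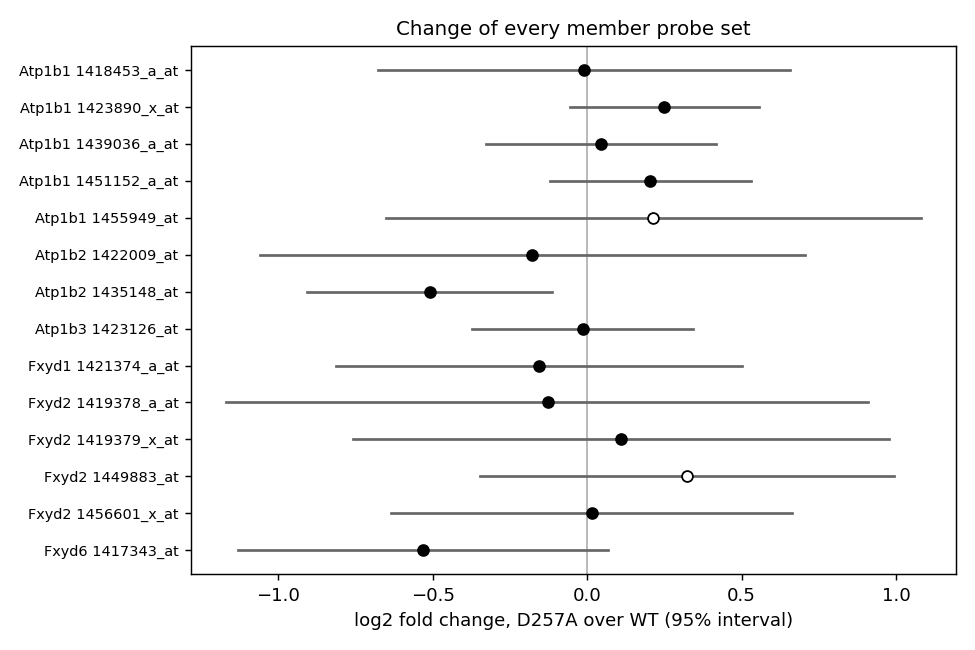
Log2 fold change of D257A over WT for all 14 member probe sets, with its 95% interval from limma; filled points passed the brightness filter, and open points come from the fit with no filter. Only the interval of Atp1b2 1435148_at (-0.91 to -0.11) leaves out 0, before any adjustment for the number of probe sets.

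Whether the beta subunits moved differently from each other was tested on their ratios within each array, since levels of different probe sets cannot be compared. The log2 ratio of Atp1b2 to Atp1b1, each by its brightest probe set, was lower in D257A by 0.76 on average. In 1 of 25 comparisons of 1 WT with 1 D257A array it went the other way. The size of this difference depends on the probe sets taken. The brightest Atp1b1 set had the largest log2 fold change of its tested sets (0.25, the others -0.01 to 0.20). The other Atp1b2 set had -0.18, against -0.51 for the brightest. The log2 ratio of Atp1b3 to Atp1b2 was higher by 0.50 (23 of 25 comparisons). Two-sided exact permutation tests gave p = 0.0159 and p = 0.0317, but both had an adjusted p of 0.238 over the 15 pairs of the 6 genes. The ratio of Atp1b3 to Atp1b1 differed by -0.27 (exact permutation p = 0.103, adjusted 0.31). No pair of the 15 passed after adjustment, and among pairs with an FXYD gene the smallest unadjusted exact p was 0.0635, for Fxyd6 over Atp1b1. With the mean over all probe sets of each gene, the lowest adjusted exact permutation p of the 15 pairs was 0.635.

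**Figure D4:**
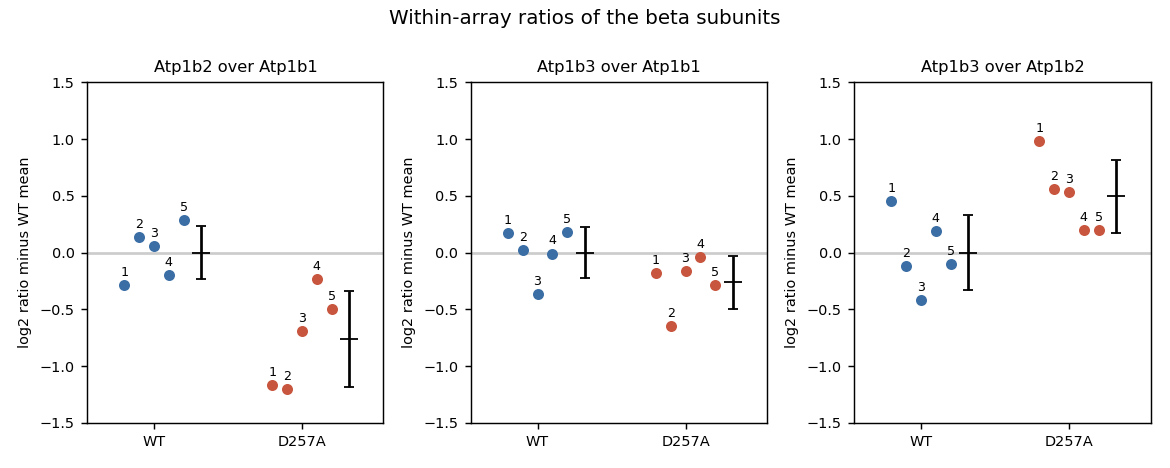
Within-array log2 ratios of the brightest probe sets of the beta subunit genes, shifted so that the WT mean is 0, one point per array labelled with its replicate number, with the mean and SD of each group. In the left panel D257A replicate 4 is the only mutant array among the WT values; the other 4 lie lower.

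The brightest probe set of Atp1b1 (1423890_x_at) varied with markers of the lateral wall and of supporting cells. With group means removed, its log2 signal over the 10 arrays had r = 0.728 with the summed signal of 6 strial marginal cell markers, r = 0.716 with 7 spiral ligament fibrocyte markers, r = 0.562 with 7 strial intermediate cell markers and r = 0.769 with 7 supporting cell and gap junction markers. The other Atp1b1 sets were not compared with these markers. Of them, 1418453_a_at and 1439036_a_at followed the brightest set only weakly (r = 0.136 and 0.209, group means removed). Each sum is of linear signals, so its brightest markers weigh most in its r. Slc12a2 made up most of the marginal cell sum (WT mean 32010, against 1027 for Kcnq1 and 1233 for Kcne1). The brightest of the other lists were Dct (15740, intermediate cell), Coch, Car3 and Otos (74290, 62620 and 49880, ligament), and Gjb6 and Gjb2 (33990 and 27190, supporting cell). The marginal cell sum was 37780 to 59300 in WT and 37220 to 60370 in D257A. None of the 5 tested marginal cell markers passed the test. Of the 7 strial intermediate cell markers 5 were negative (median log2 fold change -0.26) and 1 passed, Kcnj10, which was higher in D257A (1.26, limma adjusted p = 0.00872). Of the 7 spiral ligament markers 5 were negative (median -0.26) and 1 passed, the water channel gene Aqp1, which was lower (-0.81, limma adjusted p = 0.0359). None of the 6 tested supporting cell markers passed. The part of these cells in the Atp1b1 values was not tested.

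Fxyd1, which encodes phospholemman, an inhibitor of the pump that phosphorylation relieves and that is abundant in heart and skeletal muscle, had WT signals of 10988, 8456, 7905, 9130 and 11864. Its D257A signals were 6279, 4559, 7715, 12749 and 16408. The mutant arrays lay on both sides of the WT range: replicates 1, 2 and 3 below its lowest value and replicates 4 and 5 above its highest. The means were nearly equal, 9669 ± 1691 and 9542 ± 4905 (SD, n = 5 each), while the coefficient of variation was 17.5% in WT and 51.4% in D257A. The log2 fold change was -0.16 (SE 0.30, 95% interval -0.81 to 0.50, limma adjusted p = 0.843), and it turned to 0.07 without D257A replicate 2. With the summed skeletal muscle markers Fxyd1 had r = 0.137: among the mutants, replicate 5 had the highest muscle sum (292300) and the highest Fxyd1 signal, and replicate 4 had the lowest muscle sum (10910) and the next highest Fxyd1 signal. Its r was -0.693 with strial marginal cell, -0.569 with supporting cell and -0.546 with spiral ligament markers. The part of these cells in the Fxyd1 spread was not tested. Fxyd1 was most alike to Pcyt2, an enzyme of phosphatidylethanolamine synthesis (r = 0.99), and to Niban2 (r = 0.981).

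Fxyd2 encodes the gamma subunit, known from kidney tubules and from subsets of sensory neurons, and 3 of its 4 probe sets were tested. The brightest (1419378_a_at) had WT signals of 13641, 5213, 3407, 8772 and 5751 and D257A signals of 6549, 1646, 7558, 9816 and 9756. WT replicate 1 was the highest and D257A replicate 2 the lowest array, 8.29-fold apart, with the widest range of any tested member probe set. The means were 7357 ± 4008 and 7065 ± 3342 (SD, n = 5 each), and the interval of the log2 fold change (-0.13, limma adjusted p = 0.923) ran from -1.17 to 0.91. The sign was positive without WT replicate 1 (0.14) or D257A replicate 2 (0.34), and the other tested sets had values of 0.11 and 0.01. A change of Fxyd2 in either direction within that interval was not excluded by these arrays. The remaining set, 1449883_at, measured 15.92 ± 5.04 in WT and 24.96 ± 12.46 in D257A (SD, n = 5 each), near the bottom of the signal scale, and was not tested.

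The 3 tested sets of Fxyd2 varied together, with r of 0.963, 0.86 and 0.697 between pairs of them over the 10 arrays after removing group means. Fxyd2 and Fxyd1 also varied together (r = 0.743 for the brightest sets). Of 7 kidney-type epithelial markers 6, among them Umod and Slc12a1, lay below the brightness filter. Fxyd2 had r = 0.654 with the sum of 9 neuronal markers, -0.642 with astrocyte and satellite glia, -0.556 with neutrophil and -0.531 with cerebellar neuron markers over the 10 arrays, and their part in its spread was not tested. Adsl, an enzyme of purine synthesis (r = 0.987), and the esterase gene Iah1 (r = 0.985) were most alike to Fxyd2.

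Fxyd6 encodes phosphohippolin, a regulator known from brain and inner ear. Its WT signals were 12735, 13000, 7523, 13613 and 14332 and its D257A signals 12255, 5244, 13321, 6021 and 7428 for replicates 1 to 5. The arrays did not split by genotype: D257A replicate 3 lay among the 4 high WT arrays and D257A replicate 1 just below them. WT replicate 3 lay close to the 3 low mutant arrays. The means were 12240 ± 2708 and 8854 ± 3695 (SD, n = 5 each), with a log2 fold change of -0.53 (SE 0.28, 95% interval -1.13 to 0.07, limma adjusted p = 0.357). D257A was the higher in 4 of the 25 comparisons of 1 WT with 1 D257A array. In the RefSeq annotation Fxyd6 and Fxyd2 are neighbours on the same chromosome, and their brightest sets had r = 0.481 over the 10 arrays with group means removed.

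Other genes showed the same split of arrays as Fxyd6. Usp4, a ubiquitin protease (r = 0.964), and Fdps, an enzyme of isoprenoid and cholesterol synthesis (r = 0.964), were most alike in pattern. Fdps measured 997.7 in WT replicate 3 and 596.1, 902.3 and 1010 in D257A replicates 2, 4 and 5, against 5454 to 10439 on the other 6 arrays. Fxyd5, which encodes dysadherin, was also lowest on these 4 arrays, with 3340 in WT replicate 3 and 2187, 2179 and 2703 in D257A replicates 2, 4 and 5, against at least 5034 on the others. The r of Fxyd6 with Usp4 and Fdps rests on this split, and the low arrays include 1 WT and 3 D257A arrays. What the arrays share was not tested.

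Over the 10 arrays with group means removed, Fxyd6 had r = 0.873 with the summed signal of 7 hair cell markers, 0.591 with neuronal and 0.505 with red cell markers, and -0.831 with adipocyte and -0.669 with oligodendrocyte markers. Most of the hair cell sum was Pvalb, a calcium buffer that cerebellar neurons and muscle also express, so this r is nearly that of 1 gene. Pvalb measured 25897 to 51803 in WT, lowest in replicate 3, and 14972 to 30026 in D257A, highest in replicates 1 and 3. None of the 4 tested hair cell markers passed, while Adipoq and Cidea of the adipocyte list passed lower and Mobp of the oligodendrocyte list higher. Their part in the Fxyd6 difference was not tested.

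**Figure D5:**
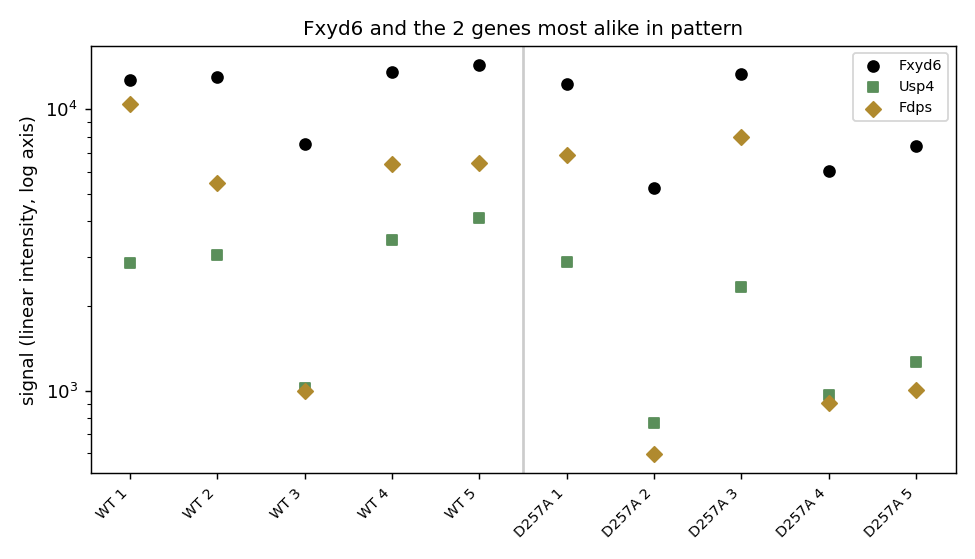
Signal (linear intensity, log axis) of Fxyd6, Usp4 and Fdps on each of the 10 arrays, WT left and D257A right of the line; levels of different genes are not comparable. All 3 genes are low on WT replicate 3 and on D257A replicates 2, 4 and 5.

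Of the other pump genes and partners listed, 17 of 21 had a named probe set and 12 were tested. None passed, against 2.28% of all tested probe sets; 7 log2 fold changes were negative and 5 positive (median -0.08). The groups did not overlap for 2 of the 12, Fxyd3 and Sgk1, against 5.16% of all tested probe sets. Fxyd3, a regulator of epithelial pumps also known as Mat8, had WT signals of 7072, 7810, 12260, 7762 and 9780 and D257A signals of 5767, 5628, 5996, 3989 and 5077. Its log2 fold change was -0.74 (SE 0.18, limma adjusted p = 0.0585). Fxyd3 passed in 2 of 21 alternatives: with arrays centred on their medians (-0.84, limma adjusted p = 0.0348) and with array weights (-0.59, limma adjusted p = 0.0464). Median centring moved the median log2 fold change of all tested probe sets to -0.10, and array weights raised all calls from 513 to 1217. The limma adjusted p of Fxyd3 was 0.102 with the replicate number as a block and 0.147 without WT replicate 5. Of 9 tested glandular and mucosal epithelium markers, 8 passed lower in the same comparison, and their part in the Fxyd3 difference was not tested.

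Sgk1, a hormone-induced kinase that raises pump and sodium channel activity, was tight within WT. It measured 10980 ± 157.1 in WT and from 13116 to 16122 in D257A (n = 5 each), a log2 fold change of 0.40 (limma adjusted p = 0.114). Sgk1 passed in 1 of 21 alternatives, that with array weights (0.42, limma adjusted p = 0.0457). With the replicate number as a block its limma adjusted p was 0.25. It is named because its groups did not overlap, after its values were seen.

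The remaining family members did not pass. Fxyd4, the channel-inducing factor of kidney, had a log2 fold change of -0.29 (limma adjusted p = 0.436), close to the edge of the brightness filter. Fxyd5 had -0.69 (limma adjusted p = 0.362). Fxyd7, a brain isoform, had 0.52 (limma adjusted p = 0.614), with its lowest signals in WT replicate 3 (592.7) and D257A replicate 2 (872.2). Atp1a4, the testis alpha form, and Atp1b4, a muscle protein related to beta subunits, lay below the brightness filter, with mean signals of 161.1 and 234.8 in WT and 245.7 and 114.2 in D257A.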

How the data were processed

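Total RNA from cochleae was labelled with biotin and hybridised to 1-colour arrays, per the labels' protocols. The authors deposited array intensity values on a linear scale, obtained with GCOS 1.3, according to the submitters' processing notes. No source used here names the background correction, the probe summary or the scaling target. Of 45101 rows, 64 were filled on 1 array only and were left out. Scan dates and detection calls were not used here. The number of arrays limits the precision.

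The platform table gave 34945 probe sets 1 gene, 932 several and 9160 none, and symbols were updated through RefSeq identifiers. The analysis used log2(signal + 16), which shrinks the fold changes of dim genes. Probe sets in the upper 0.5 by mean log2 signal, with a mean signal of at least 577, were fitted in R 4.3.3 by limma 3.58.1 (moderated variances with an intensity trend), two-sided, and p-values were adjusted by Benjamini-Hochberg at 0.05. Scripts were checked on simulated data. A gene is given by its brightest probe set. All member probe sets, the other family genes, listed partners that passed and the 2 genes most alike to each member were named. Markers were named beside a result they moved with. Without that requirement they were named to describe the tissue and for Fxyd1 (muscle), Fxyd2 (kidney) and Fxyd3 (glandular and mucosal).

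Alternatives covered the pseudocount (1 or 64), scaling, filter, variance model, array weights, replicate block, arrays left out, threshold and probe set rule. The members and lists were chosen with earlier results of these data known.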

Additional observations from a re-analysis of the deposited data

Results flagged for a closer look

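Among 28 sets of 5 arrays (14 member probe sets in both groups), 1 array stood far from the others of its group by Dixon's rule, which flags about 5% of groups by chance. It was WT replicate 3 for Fxyd6, with a signal of 7523 where the nearest other WT array had 12735, a gap of 0.765 of the whole WT range. The same array had the lowest WT signal of Fxyd1, Fxyd2 and Atp1b3. Without it the log2 fold change of Fxyd6 was -0.70 (limma adjusted p = 0.17).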

How the results depend on the processing

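Under 126 combinations of the 6 genes with an alternative, no member passed the limma threshold: adjusted p lay between 0.0679 (Atp1b2 without D257A replicate 4) and 0.999. The sign was kept in 115 and turned in 11, all in Atp1b3, Fxyd1 and Fxyd2. Atp1b3 turned to 0.011 with array weights, and Fxyd2 to 0.080 with the mean over its probe sets. That mean includes the untested set 1449883_at, near the bottom of the signal scale, which had 0.32. The tested Fxyd2 sets had -0.13, 0.11 and 0.01. Without both WT replicate 3 and D257A replicate 2, Fxyd1 and Fxyd2 turned to 0.0026 and 0.10. With 1 array left out, log2 fold changes ranged from 0.20 to 0.34 for Atp1b1, -0.64 to -0.44 for Atp1b2, -0.088 to 0.086 for Atp1b3, -0.39 to 0.071 for Fxyd1, -0.36 to 0.34 for Fxyd2 and -0.70 to -0.37 for Fxyd6. At an unadjusted p of 0.05 with a fold over 1.1, after the design text, 1 member probe set passed (Atp1b2 1435148_at) beside 3809 of all tested, 16.9%.

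Over all tested probe sets 513 passed limma, 233 higher and 280 lower. The count was 322 among the brightest 30%, 1217 with array weights, 92 and 1076 at thresholds of 0.01 and 0.10, and from 197 (without WT replicate 5) to 571 with 1 array left out. Centring arrays on their medians moved the median log2 fold change to -0.10 and gave 174 higher and 479 lower. With the replicate number as a block the count was 188 and no member passed. Same-numbered arrays had correlated deviations (r over 0.1) in 3 of 5 pairs, and 3 of 10 arrays correlated best with their own number, so the numbers were not taken as pairs. The 15 pairs of members held no call under the 13 alternatives run, with a lowest adjusted exact permutation p between 0.119 and 0.635.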
